A study of Mus musculus with 12 samples.

Results

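Toll-like receptors are membrane proteins through which microglia and other innate immune cells sense microbial and damage-associated molecules. The 9 receptor genes Tlr1, Tlr2, Tlr3, Tlr4, Tlr6, Tlr7, Tlr8, Tlr9 and Tlr13, together with the co-receptor gene Cd14, were taken from the deposited count tables by their gene symbols. These are 10 of the 55401 gene identifiers listed, and all 10 entered the tests, in which 16451 genes passed the filter on low counts. RNA was measured in microglia sorted from mouse brain as CD45int CD11b+ cells, in 12 libraries from 4 groups of 3. Each library combined cells from 3 to 4 hemispheres, so that p-values cover the spread between pools.

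All mice were male and carried Hdac3 loxp/loxp. WT mice had intact Cx3cr1 alleles, whereas in miKO mice one Cx3cr1 allele held CreER, so that tamoxifen deleted Hdac3, which encodes a histone deacetylase, in cells that express Cx3cr1. Tamoxifen was given on 5 consecutive days at 6 to 8 weeks of age, and surgery followed at least one month later. Whether WT mice also received it is not stated in the sources used here, nor is the strain. The tFCI groups underwent transient focal cerebral ischemia by a 60-min occlusion of the left middle cerebral artery, and Sham groups had the arteries exposed without occlusion. Cells were isolated on day 3 after tFCI. Loss of Hdac3 and the altered Cx3cr1 allele cannot be told apart in these groups.

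TLR2 pairs with TLR1 or TLR6 at the cell surface to detect bacterial lipoproteins, and TLR4 detects lipopolysaccharide with the help of CD14, which hands the ligand over and also assists other receptors. TLR3, TLR7, TLR8, TLR9 and TLR13 sit in endosomes and respond to nucleic acids. Most of the receptors signal through the adaptor MyD88 and NF-kB to inflammatory cytokines, whereas TLR3 uses the adaptor TRIF (Ticam1). In the brain, most of these genes are expressed mainly by microglia, and microglial TLR2 and TLR4 are among the receptors studied after ischemia.

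The libraries held 7697864 to 9452222 counts on genes. Hdac3 was lower in miKO-Sham than in WT-Sham (log2 fold change, log2FC, of -0.81) and in miKO-tFCI than in WT-tFCI (-0.71), which checks the genotype labels. The labels place replicate 1 of each group in batch 1 and replicates 2 and 3 in batch 2. In 3 groups replicates 2 and 3 were the closest pair, but in miKO-Sham replicates 1 and 2 were (chi-square per degree of freedom 2.88, the lowest of all pairs, against 3.87 to 86.4), which goes against the batch label of miKO-Sham replicate 2. miKO-tFCI replicate 1 stood apart from the other 2 libraries of its group (61.9 and 86.4). The 13 microglia markers were detected throughout, with a summed level of 36542 to 44016 CPM (read counts scaled to the TMM-corrected library size) in WT-Sham, 32679 to 37708 in miKO-Sham, 26762 to 28228 in WT-tFCI and 13995 to 22931 in miKO-tFCI. The 10 monocyte and macrophage markers summed to 20.01 to 101, 73.4 to 128, 207 to 525 and 583 to 1315 CPM in the same order, with S100a4 at 0 in miKO-Sham. Of 8 border-associated macrophage markers, 6 were called higher in miKO-tFCI vs. miKO-Sham and 3 in miKO-tFCI vs. WT-tFCI, and 0 lower. Over all tested genes, 21.9% and 4.08% were called higher in these comparisons, and 13.9% and 4.71% lower. In miKO-Sham all but Stab1 were highest in replicate 3. Mrc1 held 19.6, 17.5 and 81.7 CPM in miKO-Sham replicates 1 to 3 and 17.45, 143 and 162 in miKO-tFCI. Pf4 and Ms4a7 were highest in miKO-tFCI replicate 1. These 4 genes were named after their values were seen. In bulk RNA, fewer cells of a type and less RNA per cell cannot be told apart, and the part of these marker levels in the results below was not tested.

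In WT microglia, Tlr2 and Cd14 rose after tFCI and Tlr4 fell. Calls between groups needed an adjusted p under 0.05 together with a log2 fold change beyond 0.58 in either direction. In WT-tFCI vs. WT-Sham, 2 of the 10 genes were called higher and 1 lower, against 20.9% of all tested genes called higher and 11.7% called lower, so that the number called was no larger than over all genes. In miKO-tFCI vs. miKO-Sham, neither Tlr2 nor Cd14 was called. There, 1 gene was called higher (Tlr8) and 3 lower (Tlr6, Tlr7 and Tlr9), against 21.9% and 13.9% of all genes. Between the Sham groups, 3 genes were higher in miKO (Tlr2, Tlr7 and Tlr13) and 2 lower (Tlr1 and Tlr3), against 8.58% and 6.8%. After tFCI, 0 genes were higher in miKO by edgeR (1 of the 10, Tlr13, had an unadjusted p under 0.05 in that direction, and DESeq2 also called 0 higher), against 4.08% of all genes. Lower in miKO-tFCI than in WT-tFCI were 5 of the 10, namely Tlr1, Tlr2, Tlr3, Tlr6 and Cd14, against 4.71% of all genes. The median log2 fold change over the 10 genes was -0.77 there and 0.04 over all genes. The difference between the genotype effects after tFCI and after Sham, tested as an interaction with an adjusted p under 0.05, was negative for Tlr2 and Cd14, against 2.57% of all genes called negative and 1.25% called positive. These comparisons share libraries, since each group enters more than one of them. Groups did not overlap in CPM for 5 of the 10 genes in WT-tFCI vs. WT-Sham, against 49.8% of all tested genes. This number was 2 in miKO-tFCI vs. miKO-Sham (48.2%), 7 in miKO-Sham vs. WT-Sham (33.2%) and 6 in miKO-tFCI vs. WT-tFCI (22.9%). With no batch term, 2 of the 10 genes were called in miKO-tFCI vs. miKO-Sham, and the same number in each of the genotype comparisons. In both genotype comparisons these were Tlr2 and Tlr3, so that the other genotype calls were lost.

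**Figure D1:**
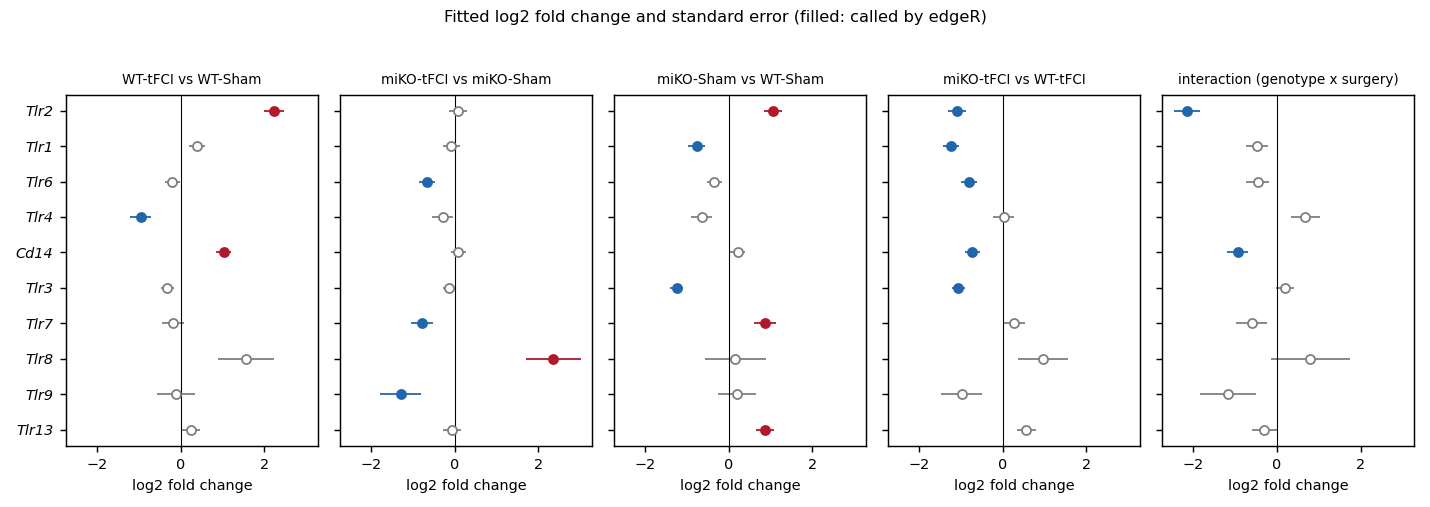
Fitted log2 fold change (x axis) of each of the 10 genes (rows) in the 4 comparisons between groups and the interaction, with bars for the standard error and filled points for genes called by edgeR. Tlr2 and Cd14 lie to the right in WT-tFCI vs. WT-Sham (2.24 and 1.03), near 0 in miKO-tFCI vs. miKO-Sham and to the left in the interaction (-2.15 and -0.94).

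Among the surface receptors, Tlr2 changed most. Its gene (ENSMUSG00000027995.10) lies on the minus strand of GRCm38 at chr3:83836272-83841767. The RefSeq promoter entry of Tlr2 is shown because Tlr2 gave the largest interaction of the 10 genes and NF-kB is the best known factor downstream of these receptors. The 300 bases run from 250 before to 50 after the start (GRCm38.p6, chr3:83841559-83841858, minus strand, 5′ to 3′), with matches to the NF-kB motif in capitals:
Tlr2 promoter: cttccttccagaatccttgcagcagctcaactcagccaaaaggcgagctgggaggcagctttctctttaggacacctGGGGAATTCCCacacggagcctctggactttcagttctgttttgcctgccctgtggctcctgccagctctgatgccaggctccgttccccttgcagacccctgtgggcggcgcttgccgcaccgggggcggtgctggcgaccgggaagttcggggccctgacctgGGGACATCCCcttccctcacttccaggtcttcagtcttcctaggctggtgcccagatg
The motif matched at 3 places on the strand shown, at -173 and -172, which overlap, and at -8 from the start. Of 32851 promoters of that length, 8.46% held a match on either strand. A match describes the letters alone.

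In WT-Sham replicates 1 to 3, Tlr2 stood at 140.5, 149 and 144 CPM, and WT-tFCI replicates held 475, 821 and 792 CPM. The miKO-Sham libraries held 342.5, 323 and 227 CPM, and those of miKO-tFCI 214, 344.5 and 420 CPM. The WT groups were thus far apart, whereas the miKO groups overlapped, with every miKO library between the WT-Sham and the WT-tFCI libraries. Tlr2 rose 4.71-fold in WT-tFCI vs. WT-Sham (log2 fold change 2.24, standard error 0.23, adjusted p = 4.05e-06 by the quasi-likelihood test of edgeR, with Benjamini-Hochberg adjustment here and throughout). In miKO-tFCI vs. miKO-Sham, Tlr2 had a log2FC of 0.08 (standard error 0.22, edgeR adjusted p = 0.796). Tlr2 was higher in miKO-Sham than in WT-Sham by 1.06 (standard error 0.22, edgeR adjusted p = 0.00387) and lower in miKO-tFCI than in WT-tFCI, at a log2FC of -1.10 (standard error 0.22, edgeR adjusted p = 0.00658). The genotype effect therefore had opposite signs after Sham and after tFCI, and the interaction was -2.15 (standard error 0.32, edgeR adjusted p = 0.00159). Within batch 1 and batch 2 the interaction of Tlr2 was -2.43 and -1.97, and over all alternatives it stayed between -2.39 and -1.83 with an adjusted p of at most 0.0111.

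Cd14, which encodes the glycolipid-anchored co-receptor of TLR4, followed Tlr2 in part. Its gene (ENSMUSG00000051439.7) lies on the minus strand of GRCm38 at chr18:36725067-36726798. The 3 WT-Sham libraries held Cd14 at 465, 530 and 505 CPM, all below the 771, 1185 and 1154 CPM of WT-tFCI. Levels in miKO-Sham were 472, 476 and 806 CPM against 551.5, 631 and 669 CPM after tFCI in this genotype, and replicate 3 of miKO-Sham was above every miKO-tFCI library. Cd14 rose in WT-tFCI vs. WT-Sham (2.04-fold, log2 fold change 1.03, standard error 0.18, edgeR adjusted p = 0.00036), but its log2 fold change in miKO-tFCI vs. miKO-Sham was 0.09 (standard error 0.17, edgeR adjusted p = 0.711). Between the Sham groups the difference was 0.21 (standard error 0.17, edgeR adjusted p = 0.448). Cd14 was lower in miKO-tFCI than in WT-tFCI, at a log2FC of -0.73 (standard error 0.17, edgeR adjusted p = 0.0164). The interaction of Cd14 was -0.94 (standard error 0.25, edgeR adjusted p = 0.0469), at -0.51 within batch 1 and -1.11 within batch 2, and this call was lost in 13 of 23 alternatives (adjusted p of edgeR or DESeq2 0.000409 to 0.163). It was lost on leaving out WT-Sham replicate 2 or 3, miKO-Sham replicate 1 or 3, WT-tFCI replicate 2 or 3, or any miKO-tFCI replicate (values of -1.01 to -0.72, the smallest without miKO-Sham replicate 3, with an edgeR adjusted p = 0.0655). The call in miKO-tFCI vs. WT-tFCI was lost without WT-tFCI replicate 2 or 3 or miKO-tFCI replicate 2 or 3 (edgeR adjusted p = 0.0884, 0.0869, 0.0592 and 0.0606).

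**Figure D2:**
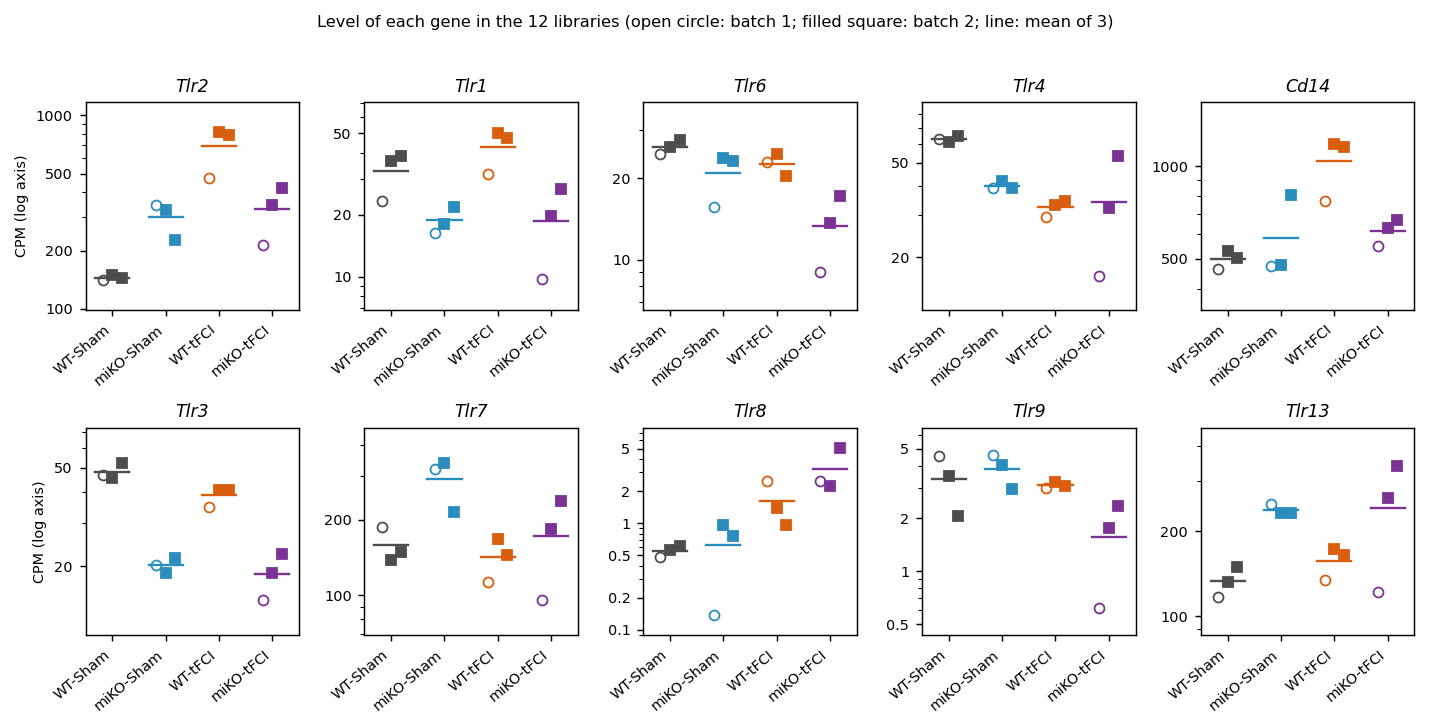
CPM (y axis, log scale, set separately for each gene) of the 10 genes in each library of the 4 groups, with open circles for batch 1, filled squares for batch 2 and a line at the mean of 3 libraries. For Tlr2 the WT-tFCI libraries lie at 475 to 821 CPM, above all other libraries, and for Tlr3 all 6 miKO libraries lie at 14.6 to 22.5 CPM, below all 6 WT libraries.

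The genes of both TLR2 partners were lower in miKO-tFCI than in WT-tFCI. Tlr1 (ENSMUSG00000044827.10, chr5:64924679-64933563) and Tlr6 (ENSMUSG00000051498.7, chr5:64952031-64960097) are neighbours on the minus strand of GRCm38 and near-identical over part of their coding sequence. Of the stretches of 100 bases in their transcripts, 259 were the same in both genes, which is 7.89% of those of Tlr1 and 7.09% of those of Tlr6. Reads that lie within these stretches cannot be assigned to either gene. The longest common run of 229 bases, all of it coding, lies at chr5:64925537-64925765 in Tlr1 and at chr5:64953828-64954056 in Tlr6 (GRCm38, transcripts of GENCODE M21):
Tlr1 and Tlr6 common run: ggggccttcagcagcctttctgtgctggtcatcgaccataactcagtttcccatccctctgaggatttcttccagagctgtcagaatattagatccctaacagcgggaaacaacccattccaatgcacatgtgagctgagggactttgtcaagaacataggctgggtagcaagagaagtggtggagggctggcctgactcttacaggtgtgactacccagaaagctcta
No other pair of the 10 genes shared a stretch of 100 bases.

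Among Sham libraries, Tlr1 had 23.3, 36.5 and 38.5 CPM in WT against 16.4, 18.04 and 21.9 CPM in miKO. After tFCI the WT libraries had 31.7, 50.0 and 47.0 CPM and the miKO libraries 9.71, 19.6 and 26.8 CPM. Within each surgery, the 2 genotypes did not overlap, which also held for 33.2% of all tested genes after Sham and 22.9% after tFCI. Tlr1 was lower in miKO-tFCI than in WT-tFCI, at a log2FC of -1.25 (standard error 0.19, edgeR adjusted p = 0.000929), and lower in miKO-Sham than in WT-Sham, with -0.77 (standard error 0.19, edgeR adjusted p = 0.0111). The difference between these effects was -0.47 (standard error 0.27, edgeR adjusted p = 0.399). Tlr1 was not called between tFCI and Sham in either genotype (log2 fold change 0.40 in WT and -0.08 in miKO). Without miKO-Sham replicate 2, the library that goes against its batch label, the Sham difference of Tlr1 was -0.63 (edgeR adjusted p = 0.0628), and with miKO-Sham replicates 1 and 2 summed, a setting chosen after seeing the data, it was -0.56 (edgeR adjusted p = 0.0998). With no batch term, both genotype calls of Tlr1 were lost (edgeR adjusted p = 0.128 after Sham and 0.0503 after tFCI).

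Tlr6 ranged from 24.5 to 27.7 CPM in WT-Sham, from 15.7 to 23.7 in miKO-Sham and from 20.4 to 24.6 in WT-tFCI. In miKO-tFCI it was 8.98, 13.7 and 17.2 CPM, below every WT-tFCI library. Tlr6 was lower in miKO-tFCI than in WT-tFCI, at a log2FC of -0.80 (standard error 0.19, edgeR adjusted p = 0.0173), and lower than in miKO-Sham, with -0.66 (standard error 0.19, edgeR adjusted p = 0.0138). Without miKO-tFCI replicate 1, the lowest library, both calls of Tlr6 were lost (-0.65, edgeR adjusted p = 0.0622, and -0.53, edgeR adjusted p = 0.0508). The first was also lost without WT-tFCI replicate 1 or 2 or miKO-tFCI replicate 2 (edgeR adjusted p = 0.0646, 0.0625 and 0.0504). Further losses of that call came in batch 2 alone (-0.58, edgeR adjusted p = 0.08) and with no batch term (-0.77, edgeR adjusted p = 0.0814).

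Tlr4 (ENSMUSG00000039005.13, plus strand of GRCm38, chr4:66827584-66930284) encodes the lipopolysaccharide receptor. It was 62.6, 61.0 and 64.4 CPM in WT-Sham, 29.7, 33.1 and 34.5 in WT-tFCI and 39.0, 41.9 and 38.9 in miKO-Sham. These 3 groups did not overlap, whereas miKO-tFCI, at 16.7, 32.3 and 53.1 CPM, ranged from below WT-tFCI to above miKO-Sham. Tlr4 fell in WT-tFCI vs. WT-Sham, at a log2FC of -0.96 (standard error 0.24, edgeR adjusted p = 0.00625), opposite to its co-receptor gene Cd14. In miKO-tFCI vs. miKO-Sham it was -0.29 (standard error 0.25, edgeR adjusted p = 0.373), at -1.21 within batch 1 and 0.04 within batch 2. The lower level in miKO-Sham than in WT-Sham (-0.65, standard error 0.24) was not called (edgeR adjusted p = 0.0769) but passed in 8 of 24 alternatives, among them DESeq2 (adjusted p = 0.048) and the fits without miKO-tFCI replicate 1 or 3 (edgeR adjusted p = 0.00861 and 0.0129). Leaving out miKO-tFCI replicate 1 gave an interaction of 1.01 for Tlr4 (edgeR adjusted p = 0.0392), which was 0.67 in all libraries (edgeR adjusted p = 0.336), and leaving out miKO-tFCI replicate 3 gave -0.73 in miKO-tFCI vs. miKO-Sham (edgeR adjusted p = 0.00989).

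Among the endosomal receptors, Tlr3 separated the genotypes most clearly. Tlr3 (ENSMUSG00000031639.12, minus strand of GRCm38, chr8:45395665-45411080) encodes the receptor for double-stranded RNA. Its RefSeq promoter is shown because Tlr3 was the member with the lowest adjusted p between the Sham groups (GRCm38.p6, chr8:45410331-45410630, minus strand, 5′ to 3′), with 1 match to the NF-kB motif, at -211, in capitals:
Tlr3 promoter: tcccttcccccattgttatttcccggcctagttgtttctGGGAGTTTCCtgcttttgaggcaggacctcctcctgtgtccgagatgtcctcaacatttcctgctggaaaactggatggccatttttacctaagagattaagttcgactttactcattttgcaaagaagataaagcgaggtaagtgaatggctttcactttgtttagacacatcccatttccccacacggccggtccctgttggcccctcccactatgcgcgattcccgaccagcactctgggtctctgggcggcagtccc
WT libraries held Tlr3 at 46.5, 45.4 and 52.3 CPM after Sham and 34.6, 40.7 and 40.7 CPM after tFCI. Those of miKO held 20.3, 18.7 and 21.5 CPM after Sham and 14.6, 18.7 and 22.5 CPM after tFCI. The lowest WT library was above the highest miKO library. Tlr3 was lower in miKO-Sham than in WT-Sham, at a log2FC of -1.25 (standard error 0.15, edgeR adjusted p = 4.07e-05), and lower in miKO-tFCI than in WT-tFCI, with -1.06 (standard error 0.15, edgeR adjusted p = 0.000559). The interaction was 0.19 (standard error 0.22, edgeR adjusted p = 0.727), and both genotype calls held in every alternative. Exons of Tlr3 share 381 bases with Gm45542, an antisense gene with 214 counts over all 12 libraries, and the library kit does not keep strand, so that reads on those bases cannot be assigned.

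Tlr7, the receptor for single-stranded RNA, and Tlr13, the receptor for bacterial ribosomal RNA, were higher in miKO-Sham than in WT-Sham. Tlr13 (ENSMUSG00000033777.4, plus strand of GRCm38, chrX:106143204-106160493) held a PU.1 motif, searched as GAGGAAG on both strands, in its RefSeq promoter. So did Tlr9 and promoter entry 2 of Tlr1, but not entry 1 of Tlr1. Tlr4, Tlr7 and Cd14 had no promoter entry to search. PU.1 is a lineage factor of myeloid cells, and 13.6% of the 32851 promoters held this motif. The promoter of Tlr13, shown as that of an endosomal receptor gene called higher in miKO-Sham than in WT-Sham (GRCm38.p6, chrX:106143025-106143324, plus strand, 5′ to 3′), has the match, at -83, in capitals:
Tlr13 promoter: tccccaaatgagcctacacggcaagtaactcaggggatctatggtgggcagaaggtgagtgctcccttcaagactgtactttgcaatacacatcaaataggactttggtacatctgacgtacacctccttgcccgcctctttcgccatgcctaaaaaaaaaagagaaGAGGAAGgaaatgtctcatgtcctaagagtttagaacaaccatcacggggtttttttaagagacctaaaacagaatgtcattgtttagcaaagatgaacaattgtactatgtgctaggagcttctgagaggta
The Sham libraries held Tlr13 at 117, 132.5 and 149 CPM in WT against 250, 231 and 232 CPM in miKO. The tFCI libraries held 134, 174 and 164 CPM in WT against 122, 261 and 339 CPM in miKO. The Sham groups were apart, and in the tFCI groups replicate 1 of miKO-tFCI was the lowest and the other 2 were the highest. Tlr13 was higher in miKO-Sham than in WT-Sham by 0.86 (standard error 0.22, edgeR adjusted p = 0.0126). In miKO-tFCI vs. WT-tFCI it differed by 0.56 (standard error 0.22, edgeR adjusted p = 0.119), at -0.14 within batch 1 and 0.82 within batch 2, and without miKO-tFCI replicate 1 by 0.86 (edgeR adjusted p = 0.00367). The Sham call of Tlr13 was lost without miKO-Sham replicate 1 (0.60, edgeR adjusted p = 0.0934) and without WT-Sham replicate 2 (0.77, edgeR adjusted p = 0.0617).

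Tlr7 (ENSMUSG00000044583.13, minus strand of GRCm38, chrX:167304929-167330558) was 188, 139 and 149 CPM in WT-Sham and 319, 338 and 216 CPM in miKO-Sham, and these groups did not overlap. After tFCI, WT libraries held 113, 167 and 144.5 CPM and miKO libraries 95.6, 185 and 237 CPM, which overlapped. Tlr7 was higher in miKO-Sham than in WT-Sham by 0.87 (standard error 0.26, edgeR adjusted p = 0.0313) and lower in miKO-tFCI than in miKO-Sham, at a log2FC of -0.79 (standard error 0.26, edgeR adjusted p = 0.0255). The first call was lost without WT-Sham replicate 2 or 3 or miKO-Sham replicate 1 or 2 (edgeR adjusted p = 0.141, 0.127, 0.164 and 0.0922). The second was lost without miKO-Sham replicate 1 or 2 or miKO-tFCI replicate 1 or 2 (edgeR adjusted p = 0.116, 0.0773, 0.123 and 0.0506), and its value was -1.74 within batch 1, -0.37 within batch 2 and -0.48 without miKO-tFCI replicate 1.

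Tlr9, the receptor for unmethylated CpG DNA, and Tlr8, another sensor of single-stranded RNA, had the fewest counts. Tlr9 (ENSMUSG00000045322.10, plus strand of GRCm38, chr9:106222598-106226883) was 4.57, 3.47 and 2.05 CPM in WT-Sham, 4.58, 4.02 and 2.95 in miKO-Sham and 2.99, 3.23 and 3.05 in WT-tFCI. In miKO-tFCI it was 0.62, 1.76 and 2.35 CPM, from 6, 14 and 19 counts, below all libraries of WT-tFCI and miKO-Sham. Tlr9 was lower in miKO-tFCI than in miKO-Sham, at a log2FC of -1.30 (standard error 0.49, edgeR adjusted p = 0.0457). This call was lost in 15 of 23 alternatives. It was lost on leaving out WT-Sham replicate 2, miKO-Sham replicate 1 or 2, any WT-tFCI replicate, or miKO-tFCI replicate 1 or 2, and the value without miKO-tFCI replicate 1 was -0.81 (edgeR adjusted p = 0.196). Tlr8 (ENSMUSG00000040522.5, minus strand of GRCm38, chrX:167242696-167264329) had 1 to 7 counts per Sham library, at 0.48, 0.56 and 0.62 CPM in WT-Sham and 0.14, 0.97 and 0.77 in miKO-Sham. After tFCI it had 8 to 41 counts, at 2.51, 1.39 and 0.97 CPM in WT and 2.48, 2.26 and 5.07 CPM in miKO, so that every tFCI library was above every Sham library of its genotype. Tlr8 rose in miKO-tFCI vs. miKO-Sham (log2 fold change 2.36, standard error 0.65, edgeR adjusted p = 0.00925), and in WT-tFCI vs. WT-Sham its log2FC was 1.56 (standard error 0.67, edgeR adjusted p = 0.0771). The interaction of Tlr8 was 0.80 (standard error 0.95, edgeR adjusted p = 0.734). The Tlr8 call was lost without miKO-Sham replicate 1 (1.86, edgeR adjusted p = 0.0505) or miKO-tFCI replicate 3 (1.88, edgeR adjusted p = 0.0644).

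To compare levels between genes, CPM was divided by exon length in kb. Cd14 had the highest level in every group, at 288 ± 19.0 CPM per kb in WT-Sham, 338 ± 111 in miKO-Sham, 599 ± 133 in WT-tFCI and 356 ± 34.6 in miKO-tFCI (SD, n = 3). Tlr2 came next in every group, at 48.0 ± 1.45, 98.7 ± 20.6, 231 ± 63.7 and 108 ± 34.6 CPM per kb in the same order. Tlr7 and Tlr13 followed in places 3 and 4, and their ranges overlapped in all 4 groups. In WT-Sham and WT-tFCI the range of Tlr2 lay above both, whereas in miKO-Sham and miKO-tFCI it overlapped the next gene. Tlr1, Tlr3, Tlr4 and Tlr6 lay between 3.56 and 12.8 CPM per kb in the group means. Tlr8 and Tlr9 were lowest, and their order turned over from WT-Sham (Tlr8 0.15, Tlr9 0.97 CPM per kb) to miKO-tFCI (Tlr8 0.91, Tlr9 0.45), where their ranges overlapped. Of the summed level per kb over the 10 genes, Tlr2 made up 10.6% to 11.01% in WT-Sham and 22.8% to 25.3% in WT-tFCI, against 11.2% to 20.9% in miKO-Sham and 15.7% to 20.2% in miKO-tFCI.

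**Figure D3:**
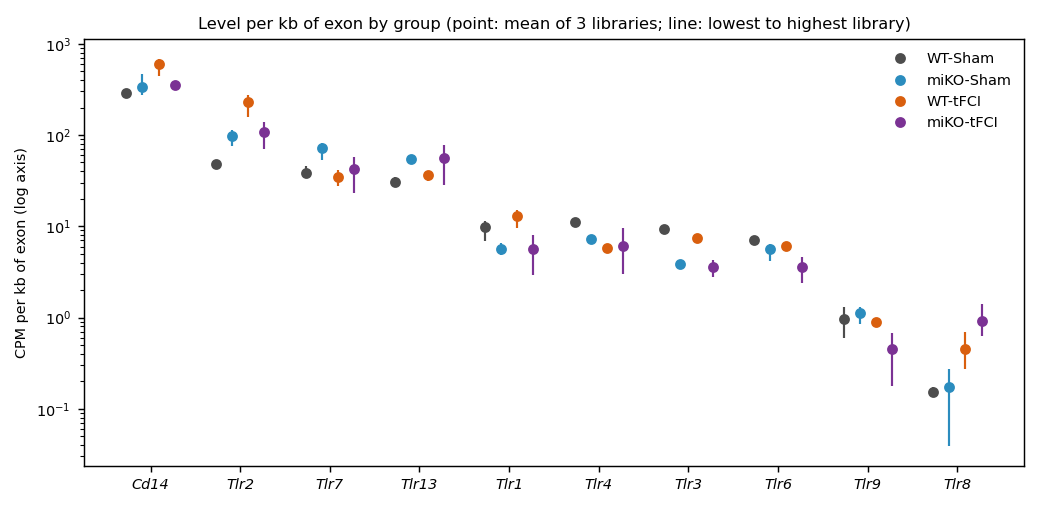
Level in CPM per kb of exon (y axis, log scale) of each gene (x axis, ordered by the mean over groups) in the 4 groups, with points at the mean and lines from the lowest to the highest of 3 libraries. Cd14 is highest in every group (288 to 599 CPM per kb in the group means), and Tlr8 and Tlr9 are lowest.

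Patterns were also compared over the 12 libraries by the Pearson correlation of batch-adjusted log2 CPM among 11224 genes, as a description, since the libraries share groups and batches. The gene most like Tlr2 was Osm (r = 0.98), which encodes oncostatin M, a cytokine of the interleukin-6 family. For Tlr3 it was Csmd3 (r = 0.98), for Cd14 Bcl2a1a (r = 0.97), for Tlr1 Abcb1b (r = 0.96), for Tlr4 Arel1 (r = 0.96) and for Tlr13 Nptn (r = 0.96). For Tlr6 it was Gsg1 (r = 0.96), for Tlr8 Cct7 (r = 0.96), for Tlr7 Taok3 (r = 0.95) and for Tlr9 Fbxo7 (r = 0.95). Each r is the highest over the 11224 genes, which had a mean of at least 5 CPM, so that high values come from the search itself. Tlr8 and Tlr9 lay below that mean, and their correlations rest on few counts, down to 1 and 6 in a library. Among the 10 genes themselves, Tlr1 and Tlr3 were most alike (r = 0.89), followed by Tlr2 and Cd14 (r = 0.79), and Tlr7 and Tlr13 were each other's closest (r = 0.73). Tlr3 and Tlr13 ran opposite to each other (r = -0.67), and so did Tlr8 and Tlr9 (r = -0.59) and Tlr2 and Tlr4 (r = -0.52).

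Of the other mouse receptors, Tlr5 and Tlr12 were tested and fell. Tlr5, the flagellin receptor, was 13.2, 13.3 and 11.8 CPM in WT-Sham and at most 4.86 CPM in any other library. It fell in WT-tFCI vs. WT-Sham (log2 fold change -2.53, edgeR adjusted p = 0.00339) and was lower in miKO-Sham than in WT-Sham (-2.04, edgeR adjusted p = 0.0214). Tlr12, a receptor for parasite profilin, fell by 1.31 after tFCI in WT (edgeR adjusted p = 6.69e-05) and was lower in miKO-Sham than in WT-Sham (-1.02, edgeR adjusted p = 0.00105) and in miKO-tFCI than in WT-tFCI (-0.68, edgeR adjusted p = 0.0382). The last call was lost without miKO-tFCI replicate 1 and with no batch term. In miKO-Sham vs. WT-Sham, 1 of these 2 genes was called without miKO-Sham replicate 2, and 1 with no batch term. Tlr11 had 0 to 8 counts per library and did not pass the filter on low counts.

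Calls in the lists below stand against the shares of all tested genes called higher and lower. These were 20.9% and 11.7% in WT-tFCI vs. WT-Sham, and 21.9% and 13.9% in miKO-tFCI vs. miKO-Sham. They were 8.58% and 6.8% in miKO-Sham vs. WT-Sham, and 4.08% and 4.71% in miKO-tFCI vs. WT-tFCI. Of 12 tested partners and chaperones of the receptors, 5 were called higher and 2 lower in WT-tFCI vs. WT-Sham. Lbp, whose product delivers lipopolysaccharide to CD14, rose by 3.48 (edgeR adjusted p = 6.6e-06), Cd36, a co-receptor of TLR2, by 1.74 (edgeR adjusted p = 0.00999), and Slc15a3, an endolysosomal peptide transporter, by 1.01 (edgeR adjusted p = 0.0025). In this comparison 6 of 8 endothelial markers were called higher, and 5 of 8 astrocyte markers were higher and 1 lower. The endothelial markers summed to 23.2 to 30.8 CPM in WT-Sham, 14.7 to 20.5 in miKO-Sham, 77.2 to 226 in WT-tFCI and 137 to 412 in miKO-tFCI. The astrocyte markers summed to 182 to 198 CPM in WT-Sham, 114 to 138 in miKO-Sham, 173 to 304 in WT-tFCI and 222 to 631 in miKO-tFCI. Slc1a3, named after its values were seen, alone held 174 to 184 CPM in WT-Sham and 99.9 to 120 in WT-tFCI. The part of such cells in the levels of Lbp and Cd36 was not tested. Ly96 (MD-2), the subunit through which TLR4 binds its ligand, fell by 0.89 (edgeR adjusted p = 0.00463), in the same direction as Tlr4 (Ly96 was named after its values were seen). In miKO-Sham vs. WT-Sham, 4 of the 12 were called, all of them higher, and 1 was also called lower when miKO-tFCI replicate 1 was left out. The largest were Ctss (1.65, edgeR adjusted p = 1.96e-05), the protease that trims endosomal receptors, Slc15a4 (0.93, edgeR adjusted p = 0.000775) and Unc93b1 (0.76, edgeR adjusted p = 0.00186), the chaperone that carries the endosomal receptors to their compartment. In miKO-tFCI vs. miKO-Sham these 3 genes fell from the same miKO-Sham libraries, by 1.07 for Ctss (edgeR adjusted p = 0.000341), 1.19 for Slc15a4 (edgeR adjusted p = 5.02e-05) and 1.23 for Unc93b1 (edgeR adjusted p = 1.66e-05). In that comparison 2 of the 12 were higher and 3 lower. In miKO-tFCI vs. WT-tFCI, Lbp (1.43, edgeR adjusted p = 0.00632) and Ctss (0.70, edgeR adjusted p = 0.0253) were higher. Ly86 (MD-1), the partner of CD180, was lower (-0.85, edgeR adjusted p = 0.0061). Without miKO-tFCI replicate 1, 1 of the 12 was higher and 1 lower, and with no batch term both higher calls were lost.

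Of 23 adaptors and kinases, few were called. After tFCI, 1 was higher and 3 lower in WT (20.9% and 11.7% of all genes). In miKO 1 was higher and 4 lower (21.9% and 13.9%). Between the Sham groups 2 were higher and 1 lower in miKO, and between the tFCI groups 2 were called, both higher (1 without miKO-tFCI replicate 1), and both calls were lost with no batch term. The kinase gene Ikbke rose in both ischemic comparisons (2.87 in WT, edgeR adjusted p = 7.45e-05, and 3.54 in miKO, edgeR adjusted p = 9.34e-06) and was higher in miKO-tFCI than in WT-tFCI (1.17, edgeR adjusted p = 0.039). Irak2, a kinase close to MyD88, was higher in miKO-Sham than in WT-Sham (1.00, edgeR adjusted p = 0.000955) and fell in miKO-tFCI vs. miKO-Sham (-1.16, edgeR adjusted p = 0.000139). The medians of this list lay between -0.31 and 0.03 in the 4 comparisons, against 0.02 to 0.04 over all genes.

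The transcription factors and negative regulators downstream were lower in miKO-tFCI than in WT-tFCI where they were called. Of 12 factors, 5 were called, against 4.71% of all genes called lower (median log2 fold change of the list -0.58). Between the Sham groups 1 factor was higher and 2 lower in miKO. After tFCI, 1 was higher and 3 lower in WT, and 1 was higher and 7 lower in miKO. Jun also stood lower in miKO-Sham, at 2644, 2619 and 3660 CPM, than in WT-Sham, at 4715, 6440 and 6281. In miKO-tFCI vs. WT-tFCI, the calls of single genes were as follows. The largest were Jun (-0.97, edgeR adjusted p = 0.00137), Atf3 (-0.89, edgeR adjusted p = 0.00407) and Nfkb1 (-0.72, edgeR adjusted p = 0.00518). Irf7, an interferon regulatory factor, rose after tFCI in WT (2.82, edgeR adjusted p = 5.16e-08) and in miKO (1.62, edgeR adjusted p = 6.95e-06), and its interaction was -1.19 (edgeR adjusted p = 0.0152). The tFCI groups overlapped for Irf7, at 62.6, 96.6 and 107.6 CPM in WT and 89.5, 92.4 and 87.0 in miKO. Its Sham levels were higher in miKO, at 29.3, 25.7 and 32.3 CPM against 12.9, 13.9 and 10.8 in WT. Of 15 negative regulators, 5 were called, the largest being Zc3h12a (-1.35, edgeR adjusted p = 0.000297), an RNase that degrades cytokine mRNA, Il1rl1 (-1.30, edgeR adjusted p = 0.0476), the interleukin-33 receptor, and Tnfaip3 (-1.21, edgeR adjusted p = 0.00214), which encodes the ubiquitin editor A20. Nfkbia, the inhibitor of NF-kB, stood at 1598 to 2140 CPM in WT-tFCI and 933 to 978 in miKO-tFCI (-1.01, edgeR adjusted p = 0.000385, named after its values were seen). Between the Sham groups 2 of the 15 negative regulators were higher and 1 lower in miKO. After tFCI, 2 were higher and 3 lower in WT, and 1 was higher and 4 lower in miKO. In miKO-tFCI vs. WT-tFCI the median of the negative regulators was -0.04. Without miKO-tFCI replicate 1, it was -0.41, and 1 of the 15 was higher and 4 lower.

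Most target genes of the pathway rose after tFCI in WT. Of 17 tested, 13 were higher and 1 lower in WT-tFCI vs. WT-Sham (median log2 fold change 2.90, against 0.02 over all genes). In miKO-tFCI vs. miKO-Sham 5 were higher and 2 lower (median 0.21). In miKO-Sham vs. WT-Sham 8 were higher and 1 lower (median 0.70, and 0.80 once genes with no more than 3 counts in all libraries of a group were set to their bound). In miKO-tFCI vs. WT-tFCI 5 were called, all of them lower (median -0.65), with 1 higher and 5 lower without miKO-tFCI replicate 1. The interaction was called for 9 of the 17, with a negative sign in each, against 2.57% of all genes called negative. Its median over the list was -1.63. With no batch term 3 of the 17 were lower in miKO-tFCI vs. WT-tFCI and 5 were negative in the interaction.

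The targets differed in what they did in miKO. Cxcl10, a chemokine induced by interferon, had 26.4, 37.8 and 34.9 CPM in WT after Sham and 251, 397.5 and 385 CPM after tFCI. In miKO it had 18.9, 22.3 and 18.7 CPM after Sham and 57.7, 48.0 and 52.9 CPM after tFCI, far below WT-tFCI (-2.67, edgeR adjusted p = 4.84e-07). Tnf, the cytokine, was 66.6, 93.0 and 70.3 CPM in WT-Sham, 388, 392.5 and 252 in miKO-Sham, 382, 685 and 683 in WT-tFCI and 188, 344 and 364 in miKO-tFCI. As for Tlr2, every miKO library lay above WT-Sham, and the interaction was -3.18 (edgeR adjusted p = 0.00014, named after its values were seen). Il1a was lower in miKO-tFCI than in WT-tFCI (-1.07, edgeR adjusted p = 0.00209), and so was Nfkbiz (-1.23, edgeR adjusted p = 0.000858), an NF-kB cofactor. Acod1, which encodes the itaconate-producing enzyme, had 0 to 2 counts per library in WT-Sham and 36 to 44 in miKO-Sham, 72 to 108 in WT-tFCI and 107 to 202 in miKO-tFCI. Saa3, an acute-phase gene that had at most 2 counts per library in WT-Sham and at most 13 in miKO-Sham, reached 37.6 to 78.7 CPM in WT-tFCI and 39.4 to 124 in miKO-tFCI.

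**Figure D4:**
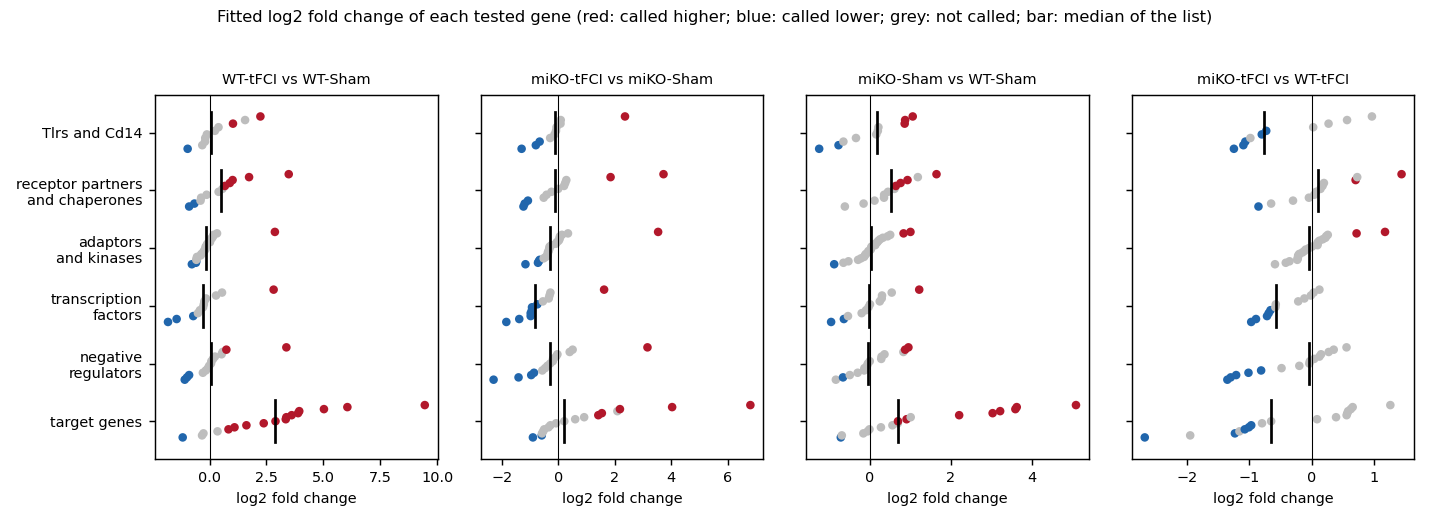
Fitted log2 fold change (x axis, scaled separately in each panel) of the tested genes of the receptors and of 5 pathway lists (rows) in the 4 comparisons, with red and blue points for genes called higher and lower and a bar at the median of each list. Most target genes lie to the right in WT-tFCI vs. WT-Sham (14 of 17 above 0, median 2.90). In miKO-tFCI vs. WT-tFCI they lie on both sides (8 of 17 above 0, median -0.65), with 5 called lower and 0 higher. The folds of genes with almost no counts in a group, such as Saa3, are not bounded by their points.

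Of 10 ligand genes, 4 were called in miKO-tFCI vs. WT-tFCI, all of them higher, against 4.08% of all genes. None of these calls held with no batch term. S100a8 and S100a9, alarmins that bind TLR4, were higher (2.30, edgeR adjusted p = 0.0422, and 2.24, edgeR adjusted p = 0.0452). Both are also neutrophil markers, and 5 of the 8 tested neutrophil markers were higher in this comparison. Ly6g, the defining marker, had 0 to 6 counts per library and did not pass the filter on low counts. The 9 neutrophil markers summed to 628 to 1270 CPM in WT-Sham, 1022 to 1096 in miKO-Sham, 485 to 557 in WT-tFCI and 877 to 1126 in miKO-tFCI. A large part of these sums was Csf3r, named after its values were seen. It held 544 to 587 CPM in WT-Sham, 730 to 784 in miKO-Sham, 338 to 374.5 in WT-tFCI and 231 to 283 in miKO-tFCI. Between the tFCI groups Csf3r thus ran opposite to S100a8 and S100a9. The part of neutrophils was not tested. Tnc, an extracellular matrix gene, had 0 counts in all WT-Sham libraries and stood at 9.81 to 57.1 CPM in WT-tFCI and 23.8 to 105 CPM in miKO-tFCI. Endothelial markers, by the sums given with Lbp, were also higher in each tFCI group than in each Sham group. The astrocyte sums of WT-tFCI and WT-Sham overlapped. Most of the WT-Sham sum was Slc1a3, which was lower in WT-tFCI. Of 8 astrocyte markers, 5 were called higher and 1 lower in WT-tFCI vs. WT-Sham. The part of such cells in the level of Tnc was not tested. Of 16 other pattern recognition receptors, 7 were called in miKO-Sham vs. WT-Sham, all of them higher, against 8.58% of all genes. Among them were Clec7a (Dectin-1, 4.67, edgeR adjusted p = 3.93e-07) and Clec4e (Mincle, 2.92, edgeR adjusted p = 0.00119, with 0 to 8 counts per library in WT-Sham). In miKO-tFCI vs. WT-tFCI, 4 of the 16 were higher and 2 lower (2 and 2 with no batch term). Clec4d (2.07, edgeR adjusted p = 0.00176), Clec4e (1.87, edgeR adjusted p = 0.00156) and Clec7a (1.49, edgeR adjusted p = 0.00483), all lectin receptor genes, were among the higher. The inflammasome sensor gene Nlrp3 (-1.16, edgeR adjusted p = 0.000361) and Tmem173 (STING, -0.74, edgeR adjusted p = 0.00289) were the lower, both named after their values were seen. Of 9 tested monocyte and macrophage markers, 5 were higher in this comparison, with Ccr2 at 3.17 to 21.4 CPM in WT-tFCI and 18.5 to 75.9 CPM in miKO-tFCI, highest in miKO-tFCI replicate 1. The part of such cells in the levels of the receptors was not tested.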

How the data were processed

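RNA of CD45int CD11b+ microglia was sequenced in 12 mouse libraries, 3 for each genotype (WT, miKO) and surgery (Sham, tFCI). The authors deposited raw read counts per gene for each library. Per the submitters' processing notes, FastQC 0.11.9, Trim Galore, HISAT2 2.2.1, SAMtools and HTSeq 1.99.2 were used with mm10 (GRCm38.p6). The library kit (SMART-Seq v4) does not keep strand. Rows that named no gene were left out, which kept 30.7% to 38.5% of the reads in all rows, unaligned reads included. Reads that fell in no annotated feature made up 45.3% to 52.5%. The 7697864 to 9452222 gene counts per library limit precision for low genes such as Tlr8.

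Counts were fitted for all genes together with edgeR 4.0.16 in R 4.3.3 (limma 3.58.1), with a low-count filter (filterByExpr), TMM factors (0.864 to 1.11), one term per group and batch from the labels, and quasi-likelihood tests. Benjamini-Hochberg adjustment covered the 16451 genes tested. The scripts were tested on simulated counts. DESeq2 1.42.0 and other settings were alternatives. Log2 CPM used a prior count of 2.

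Groups came from the labels of each library. The 10 genes, the pathway and marker lists and the tests were chosen with earlier results of these data known. The text names all 10 genes, Hdac3, at most the 3 largest called changes per pathway list and comparison, the most alike gene, and defining markers of other cell types. Any other gene is said to have been named after its values were seen.

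Replicate numbers are shared between groups. Deviations from the group means of same-numbered libraries correlated at 0.74, 0.43 and 0.45 between miKO-tFCI and WT-tFCI and at 0.28, 0.10 and 0.24 between WT-tFCI and WT-Sham. Batch was not removed from these deviations and follows the replicate numbers, so that pairing and a shift between batches cannot be told apart. For replicates 1 to 3 of miKO-Sham, the correlations were 0.13, -0.04 and 0.30 with miKO-tFCI and 0.22, -0.12 and 0.35 with WT-Sham. The promoter table of RefSeq held entries for 7 of the 10 genes.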

Additional observations from a re-analysis of the deposited data

Results flagged for a closer look

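The genotype effect differed between tFCI and Sham for 2 of the 10 genes, by the interaction test of edgeR with Benjamini-Hochberg adjustment. For Tlr2 the effect after tFCI minus that after Sham was -2.15 on the log2 scale (edgeR adjusted p = 0.00159), with opposite signs of the genotype effect in the 2 surgeries. For Cd14 it was -0.94 (edgeR adjusted p = 0.0469), and it lost its call in 13 of 23 alternatives.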

How the results depend on the processing

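Over 25 alternatives, 1178 values of the 10 genes were recomputed. Of these, 1099 kept their side of the threshold, 41 of them, called in neither fit, with a changed sign, 66 lost their call, 13 gained one and 0 called values changed sign. The cause of each change was not tested. The calls of Tlr2 in both genotype comparisons and for ischemia in WT, its interaction, the calls of Cd14 and Tlr4 in WT-tFCI vs. WT-Sham and both genotype calls of Tlr3 held in every alternative run.

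The number of the 10 genes called in WT-tFCI vs. WT-Sham was 3 in all alternatives. With no batch term it was 2 in miKO-tFCI vs. miKO-Sham (4 in the reported fit), 2 between the Sham groups (5), 2 in miKO-tFCI vs. WT-tFCI (5) and 1 in the interaction (2). In miKO-tFCI vs. miKO-Sham it was also 2 with total counts alone, with at least 10 counts in every library, in batch 2 alone and with miKO-Sham replicates 1 and 2 summed. The last setting gave 3 in miKO-Sham vs. WT-Sham. The interaction gave 1 with RLE size factors, total counts alone and at least 10 counts in every library. Leaving out each library in turn gave 3 to 6 in miKO-Sham vs. WT-Sham, 1 to 4 in miKO-tFCI vs. miKO-Sham, 3 to 5 in miKO-tFCI vs. WT-tFCI and 1 to 2 in the interaction. The lowest counts came without WT-Sham replicate 2 or miKO-Sham replicate 1 or 2 in the first, miKO-Sham or miKO-tFCI replicate 1 in the second, and WT-tFCI or miKO-tFCI replicate 2 in the third. In the interaction, leaving out WT-Sham replicate 2 or 3, miKO-Sham replicate 1 or 3, WT-tFCI replicate 2 or 3 or miKO-tFCI replicate 2 or 3 gave 1. Summing miKO-Sham replicates 1 and 2, and placing replicate 2 in batch 1, were chosen after seeing the data.

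With the replicate number as a block, 3, 3, 5, 5 and 2 of the 10 genes were called for ischemia in WT, ischemia in miKO, genotype after Sham, genotype after tFCI and the interaction. The one change was Tlr9 in miKO-tFCI vs. miKO-Sham (-1.28, edgeR adjusted p = 0.0576). In all, 7 of 12 libraries correlated best with their own number. Scaling by total counts alone moved the median of all genes to 0.16 for ischemia in miKO, -0.23 for genotype after Sham and 0.15 in the interaction. The genes called higher and lower were then 4151 and 1704 (3603 and 2284 with TMM) in the first, 834 and 2398 (1411 and 1119) in the second, 292 and 279 (206 and 423) in the interaction and 491 and 1061 (671 and 775) for genotype after tFCI. With no batch term the last were 213 and 488, and the interaction had 85 and 218. With no low-count filter, 1200 were higher for genotype after tFCI and the interaction had 458 higher and 814 lower, with DESeq2 the interaction had 345 and 654, and with only the compared groups 1542 were higher for genotype after tFCI. With at least 10 counts in every library, which tests fewer genes, 1962 and 2003 were higher for ischemia in WT and miKO (3440 and 3603). The interaction had 137 higher in batch 2 alone and 313 with miKO-Sham replicate 2 in batch 1. Leaving out WT-tFCI replicate 3 gave the fewest calls for genotype after tFCI (212 and 404) and leaving out WT-tFCI replicate 2 gave 95 higher and 186 lower in the interaction. Depth limits Tlr8 and Tlr9, whose libraries held as few as 1 and 6 counts.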
